A study of Mus musculus with 7 samples.

Results

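The enzymes that write and erase DNA methylation were examined in Tregs of aged and young mice. The 10 genes were chosen by symbol for their known roles, with no threshold on their levels, out of 25469 genes with a count in at least 1 library: Dnmt1, Dnmt3a, Dnmt3b, Uhrf1, Uhrf2, Tet1, Tet2, Tet3, Tdg and Mbd2. All 10 were expressed highly enough to be tested, among 13904 genes. The study related Tregs of aged mice to cognitive decline after surgery, and its RNA-sequencing asked how aged and young Tregs differ in their transcripts. There were 2 groups, 3 biological replicates of aged mice (18 months) and 4 of young mice (8 weeks by the labels, while the methods of the study give another age for its young mice). All mice were wild type, and the methods name male C57BL/6 mice for the study. The cells were CD4+CD25+ splenocytes, taken with an isolation kit and not sorted by Foxp3, so that activated T cells that carry CD25 can be among them. Whether cells of several mice were pooled for a replicate is not given in the sources used here.

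In mammals, a methyl group on cytosine is found mainly where C is followed by G, a CpG site. Dnmt1 copies the mark onto the new strand after DNA replication, guided by Uhrf1, which recognises hemimethylated sites, whereas Dnmt3a and Dnmt3b place the mark on unmethylated DNA. The TET enzymes Tet1, Tet2 and Tet3 oxidise the methyl group with oxygen, iron and 2-oxoglutarate. The DNA glycosylase Tdg then cuts out the most oxidised forms, and base excision repair puts back a plain cytosine. Mbd2 binds methylated CpG and brings the NuRD complex, a chromatin remodeller with histone deacetylase activity. In Tregs, loss of methylation at an intronic enhancer of Foxp3 is known to hold Foxp3 expression stable. The present data are transcript levels only, and neither methylation nor protein was measured.

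Most start sites of these genes are themselves rich in CpG. RefSeq promoter windows of 300 bases (GRCm38.p6, 250 bases before and 50 after a start) were matched for 9 of the 10 genes, 14 windows in all. The median of all 32841 mouse windows was 7 CpG, and of the 14 only 1, of Dnmt1 with 2 CpG, held fewer. The window of Tet2 held 57 CpG, at percentile 99.8 of all windows, and the first of the windows of Dnmt3a held 46, at percentile 98.3. The windows of Tet3 and Tet1 held fewer, 22 and 17, at percentiles 76.9 and 68.6. Both lie inside their gene, at chr6:83441629-83441928 for Tet3 (5′ end of the gene at 83459084) and chr10:62887275-62887574 for Tet1 (5′ end at 62908996). Any start further upstream in these genes had no window here. Uhrf2 had 28 CpG in its window, Dnmt3b 30 and Tdg 26. The stretches below are shown because Dnmt3a and Tet1 are the genes that passed the test between ages and Tet2 and Tet3 are the other TET enzymes. Each runs 5′ to 3′ on the strand of the gene up to the base before the start site, with any exonic bases left out, and capitals mark each CpG.
Dnmt3a, chr12:3806780-3806979, plus strand: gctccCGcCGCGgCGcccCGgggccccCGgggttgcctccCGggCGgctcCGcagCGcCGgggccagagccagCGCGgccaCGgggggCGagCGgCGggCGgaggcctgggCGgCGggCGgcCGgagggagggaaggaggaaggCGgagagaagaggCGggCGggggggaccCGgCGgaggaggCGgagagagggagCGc
Tet1, chr10:62887325-62887412, minus strand: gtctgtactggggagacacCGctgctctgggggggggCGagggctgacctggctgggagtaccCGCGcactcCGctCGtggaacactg
Tet2, chr3:133544391-133544590, minus strand: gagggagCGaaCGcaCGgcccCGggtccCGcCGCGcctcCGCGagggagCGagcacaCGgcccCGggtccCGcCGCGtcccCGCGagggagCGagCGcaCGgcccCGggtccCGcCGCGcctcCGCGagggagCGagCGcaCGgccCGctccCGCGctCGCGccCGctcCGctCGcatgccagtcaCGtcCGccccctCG
Tet3, chr6:83441679-83441754, minus strand: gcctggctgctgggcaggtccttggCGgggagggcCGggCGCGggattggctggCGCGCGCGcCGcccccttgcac
CpG lay close together along the stretches of Dnmt3a (29 in 200 bases) and Tet2 (40 in 200 bases). The stretch of Tet1 held 6 CpG in 88 bases and that of Tet3 held 9 in 76 bases.

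The windows were searched on both strands for TTTCGCGC, TTTGGCGC and TTTCCCGC (forms of the E2F motif of cell cycle genes), GGGCGG (the core of the Sp1 motif), CCGGAAGT (ETS) and CACGTG (an E-box). TTTCGCGC was found in 2 of the 14 windows, 1 of Dnmt1 (chr9:20952574-20952873) and 1 of Uhrf1 (chr17:56304063-56304362), and in 0.323% of all windows. The same window of Dnmt1 held TTTGGCGC, which 0.515% of all windows hold. GGGCGG was in 11 of the 14 windows, against 35.7% of all windows. CACGTG was in 2, 1 each of Dnmt3a and Tdg (7.15% of all windows), and TTTCCCGC (1.07%) and CCGGAAGT (3.89%) were in 0. The shares are over all windows, whereas most of the 14 windows held more CpG than the median of all. Windows of like CpG content were not compared, and some windows of Dnmt3a overlap each other. These matches describe the letters only, and binding was not measured.

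Libraries held 10734234 to 11244060 reads counted on genes in aged Tregs and 12039894 to 13649310 in young Tregs. Values below are counts scaled to library size by TMM (CPM), and ± gives the SD over the 3 aged or the 4 young libraries. At these depths 3 counts are 0.21 to 0.302 CPM, and Tet1 and Dnmt3b had the fewest counts of the 10 genes, 52 to 233 and 83 to 180 per library. Counting error was thus largest for these genes, and counting intervals do not apply to PCR copies, since the cDNA carries no molecular identifiers. The label of the cells was checked by markers. Cd4 lay between 434 and 633 CPM, Il2ra (CD25) between 327 and 684 CPM and Foxp3 between 394 and 622 CPM over the 7 libraries. By edgeR's quasi-likelihood test 0 of these 3 passed between ages, while each of Cd4 and Il2ra had an unadjusted p under 0.05 and passed, lower in aged Tregs, by DESeq2 (adjusted p = 0.0387 and 0.00652), and Il2ra also by limma voom (adjusted p = 0.0467). RNA of other cells was present, with haemoglobin genes at 1.24% to 13.1% of counts. Mitochondrial genes took 5.08% to 10.7% of counts in aged Tregs and 2.63% to 3.23% in young Tregs. With mitochondrial, haemoglobin and immunoglobulin genes left out of the counts, the log2 fold changes were -0.64 for Dnmt3a (adjusted p = 0.00572) and -1.003 for Tet1 (adjusted p = 0.0381) by edgeR, and these were again the 2 of the 10 genes that passed. Leaving those genes out changes the scaling and the set of genes tested. It does not remove RNA of other cells from the counts of the 10 genes. Aged replicate 1 had both the highest mitochondrial share (10.7%) and the highest summed neutrophil markers.

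Of the 10 genes, 2 differed between ages, Dnmt3a and Tet1, and both were lower in aged Tregs. This count of 2 compares with 16.7% of all genes tested that passed edgeR's quasi-likelihood test at an adjusted p of 0.05, and with 6.94% that passed and were lower in aged Tregs. None of the 10 was higher in aged Tregs by this test (0 genes, against 9.8% of all genes). At an unadjusted p under 0.05 stood 5 of the 10 genes (32.7% of all genes). The aged and young libraries did not overlap for 4 of the 10 genes, Dnmt3a, Uhrf2, Tet1 and Tet3, against 29.9% of all genes, and in all 4 the aged libraries were lower (14.4% of all genes). The log2 fold change of aged over young Tregs was negative for 9 of the 10 genes, with a median of -0.24, and Tet2 was the exception. The median of all genes tested was 0.02. In bulk RNA, fewer cells of a type and less RNA per cell cannot be told apart, and this holds for every difference below.

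**Figure D1:**
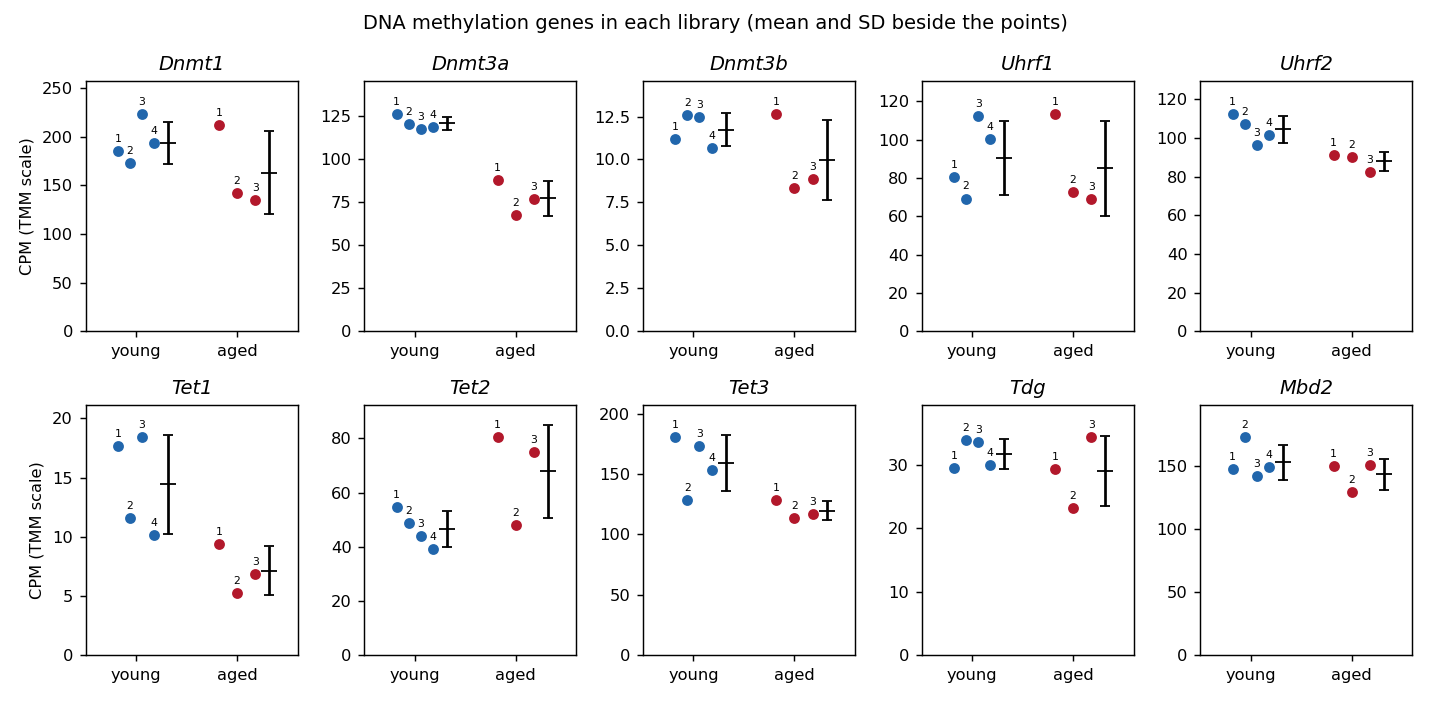
CPM (TMM scale, each panel with its own axis) of the 10 genes in every library, with points numbered by replicate and bars at the mean ± SD of 3 aged and 4 young libraries. For Dnmt3a the aged libraries reach 87.6 CPM at most and the young libraries start at 117 CPM, whereas the points of Uhrf1 and Dnmt1 overlap.

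Dnmt3a, the main de novo methyltransferase of T cells (ENSMUSG00000020661, chr12:3806007-3914443, plus strand, GRCm38), fell in aged Tregs. Its levels were 87.6, 67.3 and 76.4 CPM in the aged libraries (replicates 1 to 3, the order used throughout) and 126, 120.03, 117 and 118 CPM in the young libraries (replicates 1 to 4). Every aged library lay below every young one, and the young libraries lay within a narrow range (coefficient of variation 3.31%). Means were 77.1 ± 10.2 CPM (SD, n = 3) for aged and 120.4 ± 3.99 CPM (SD, n = 4) for young libraries. On the log2 scale the fold change was -0.64 (SE 0.106, 95% interval -0.89 to -0.40), with an adjusted p of 0.00624 by edgeR's quasi-likelihood test. It passed the test with any 1 library left out, at log2 fold changes of -0.75 to -0.55 and adjusted p of 0.00344 to 0.0284 by edgeR's quasi-likelihood test. The antisense transcript Dnmt3aos overlaps 0.8% of its exonic bases and had 0 to 1 counts per library.

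Dnmt3b, the other de novo enzyme (ENSMUSG00000027478, chr2:153649450-153687730, plus strand), had a lower level per kilobase of exon than Dnmt3a and did not pass the test. Aged libraries had 12.7, 8.36 and 8.89 CPM and young libraries 11.2, 12.6, 12.5 and 10.7 CPM. Aged replicate 1 was the highest of all 7 and the other aged libraries were the lowest. The log2 fold change was -0.23 (95% interval -0.64 to 0.18), with an adjusted p of 0.409 by edgeR's quasi-likelihood test. It was -0.45 without aged replicate 1 (adjusted p = 0.0739 by edgeR), -0.12 without aged replicate 2 and -0.15 without aged replicate 3. Counts of Dnmt3a per count of Dnmt3b did not overlap between ages, at 6.92 to 8.59 in aged and 9.38 to 11.3 in young Tregs, and this difference was not tested.

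Dnmt1, the maintenance methyltransferase (ENSMUSG00000004099, chr9:20907209-20959888, minus strand), had the highest level per kilobase of exon of the methyltransferases. It stood at 212, 142 and 135 CPM in aged and at 186, 173, 224 and 193 CPM in young Tregs. Here aged replicates 2 and 3 lay below every young library, while aged replicate 1 lay above 3 of the 4. Its log2 fold change was -0.25 (SE 0.173, 95% interval -0.64 to 0.15, adjusted p = 0.36 by edgeR's quasi-likelihood test). When aged replicate 1 was left out it was -0.49, with an adjusted p of 0.0301 by edgeR's quasi-likelihood test, so that 1 library decided this call. It was -0.16 without aged replicate 2 and -0.13 without aged replicate 3. It did not pass under any of the other 16 alternatives.

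Uhrf1, which brings Dnmt1 to hemimethylated sites (ENSMUSG00000001228, chr17:56303321-56323486, plus strand), showed no difference beyond its spread. Levels were 113, 72.4 and 68.8 CPM in aged and 80.3, 69.2, 112 and 100.4 CPM in young Tregs. High and low libraries occurred at both ages, and the log2 fold change of -0.09 (95% interval -0.59 to 0.41) was -0.36 without aged replicate 1 and turned positive without aged replicate 2, aged replicate 3 or young replicate 3. Uhrf2, a paralog of Uhrf1 that also binds hydroxymethylated DNA (ENSMUSG00000024817, chr19:30030513-30093722, plus strand), varied much less. Levels of Uhrf2 were 91.3, 90.4 and 82.4 CPM in aged and 113, 107, 96.7 and 101 CPM in young Tregs. The groups did not overlap, yet the log2 fold change of -0.25 (SE 0.0911, 95% interval -0.45 to -0.04) did not pass the test, with an adjusted p of 0.1 by edgeR. It passed in 0 of the 17 alternatives of test, scaling, filter and libraries, at adjusted p of 0.0864 to 0.379 by edgeR, DESeq2 or limma voom, and its unadjusted p was under 0.05 by edgeR.

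**Figure D2:**
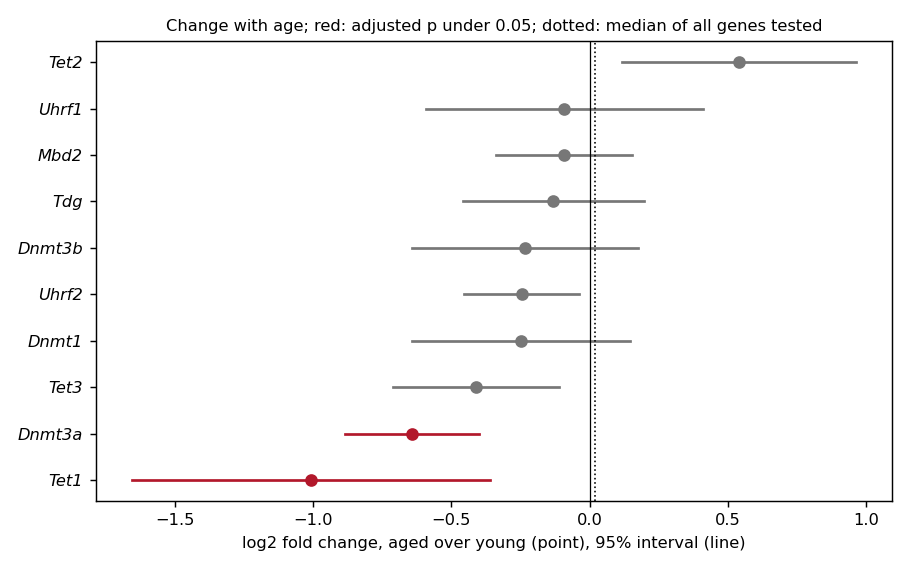
Log2 fold change of aged over young Tregs for each of the 10 genes with its 95% interval, red where the adjusted p was under 0.05, and a dotted line at the median of all genes tested (0.02). Dnmt3a (-0.64) and Tet1 (-1.01) are in red, and Tet2 (0.54) is the one gene to the right of 0.

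Among the TET enzymes, Tet1 fell, and Tet2 and Tet3 had opposite signs without passing the test. Tet1 (ENSMUSG00000047146, chr10:62804570-62908996, minus strand), the TET enzyme best known from embryonic stem cells, had the lowest level per kilobase of exon. It was at 9.35, 5.24 and 6.83 CPM in aged and at 17.7, 11.6, 18.4 and 10.1 CPM in young Tregs. All aged libraries lay below all young ones, although aged replicate 1 came close to young replicate 4 and the young libraries spread widely (coefficient of variation 29.1%). Means were 7.14 ± 2.07 CPM (SD, n = 3) for aged and 14.4 ± 4.21 CPM (SD, n = 4) for young libraries. Its log2 fold change was -1.01 (SE 0.283, 95% interval -1.66 to -0.36), with an adjusted p of 0.0436 by edgeR's quasi-likelihood test. This call was close to the threshold. It was lost without aged replicate 2 (log2 fold change -0.83, adjusted p = 0.111 by edgeR), aged replicate 3 (-0.97, 0.127), young replicate 1 (-0.89, 0.107) or young replicate 3 (-0.87, 0.109), and held when any of the other 3 libraries was left out. It was also lost with limma voom (-0.97, adjusted p = 0.0662).

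Tet2, a TET enzyme with broad expression in blood cells (ENSMUSG00000040943, chr3:133463679-133545139, minus strand), was the only one of the 10 genes with a positive log2 fold change. Aged libraries had 80.4, 48.1 and 74.9 CPM, and young libraries 54.7, 48.8, 44.0 and 39.1 CPM. Aged replicates 1 and 3 lay above every young library, whereas aged replicate 2 lay among them. The log2 fold change was 0.54 (SE 0.185, 95% interval 0.12 to 0.96, adjusted p = 0.0809 by edgeR's quasi-likelihood test). When aged replicate 2 was left out it was 0.73, with an adjusted p of 0.0162 by edgeR. It also passed with the GC and length trends of each library removed (0.66, adjusted p = 0.0157 by edgeR) and in none of the other 15 alternatives.

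Tet3 (ENSMUSG00000034832, chr6:83362373-83459084, minus strand) had the highest level of the TET enzymes per kilobase of exon. Its levels were 128, 113 and 117 CPM in aged and 181, 129, 173 and 154 CPM in young Tregs. The groups did not overlap, but aged replicate 1 and young replicate 2 were nearly equal. For Tet3 the log2 fold change was -0.41 (SE 0.131, 95% interval -0.71 to -0.11, adjusted p = 0.064 by edgeR's quasi-likelihood test). It passed with DESeq2 (-0.44, adjusted p = 0.0272) and, by edgeR's quasi-likelihood test, without young replicate 2 (-0.50, adjusted p = 0.0226), and in none of the other 15 alternatives. With GC and length trends removed it shrank to -0.25 (adjusted p = 0.113 by edgeR).

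To set the TET enzymes side by side, CPM was divided by the kilobases of exon of each gene. In these levels per kilobase, Tet2 made up 36.5%, 28.6% and 37.4% of the summed TET transcripts in the aged libraries, and 21.3%, 25.5%, 18.4% and 19.0% in the young ones. The share of Tet2 was thus higher in every aged library. The share of Tet1 was 3.39% to 4.63% in aged and 5.37% to 8.40% in young Tregs, without overlap. Tet3 made up the largest share in every library, 58.9% to 68.0% in aged and 67.9% to 75.6% in young Tregs, with aged replicate 2 just above the lowest young library. These shares are made from the same counts as the fold changes above, and no test of them was run.

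**Figure D3:**
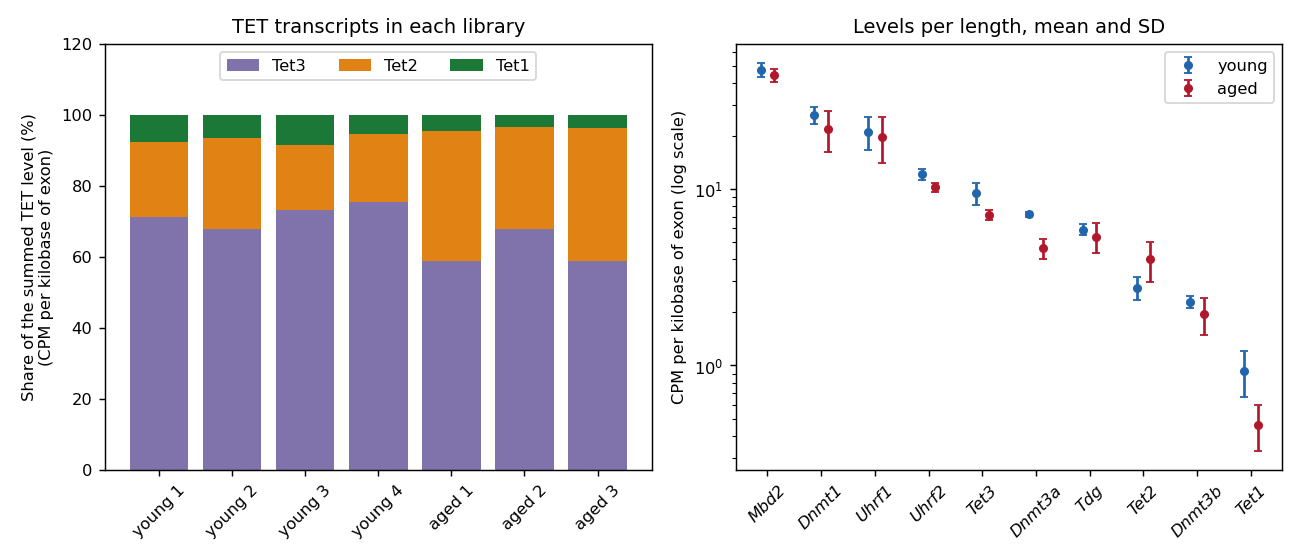
Left, share in percent of the summed TET level per kilobase of exon taken by Tet1, Tet2 and Tet3 in each library. Right, level per kilobase (CPM per kilobase of exon, log axis) of the 10 genes, mean ± SD of 3 aged and 4 young libraries: Mbd2 is highest and Tet1 lowest at both ages.

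Over the 10 genes, levels per kilobase of exon in young Tregs fell in the order Mbd2 (47.6 ± 4.25 CPM per kilobase), Dnmt1 (26.3 ± 2.93), Uhrf1 (21.3 ± 4.54), Uhrf2 (12.2 ± 0.806), Tet3 (9.53 ± 1.39), Dnmt3a (7.24 ± 0.240), Tdg (5.91 ± 0.436), Tet2 (2.77 ± 0.397), Dnmt3b (2.30 ± 0.187) and Tet1 (0.934 ± 0.272). Neighbours whose libraries overlapped were Dnmt1 with Uhrf1 and Tet2 with Dnmt3b, and all other neighbours were apart. In aged Tregs the order was the same except that Tdg (5.39 ± 1.03 CPM per kilobase) stood above Dnmt3a (4.63 ± 0.613), which was turned per kilobase of coding sequence (28.3 ± 3.74 for Dnmt3a and 23.0 ± 4.39 for Tdg). Per kilobase of exon, the aged libraries of Dnmt3a overlapped those of Tdg and of Tet2 (4.02 ± 1.02), from which the young libraries were apart, while per kilobase of coding sequence the aged libraries of Dnmt3a overlapped only those of Tdg of these 2 genes. The order in the middle depends on the length used: per kilobase of coding sequence Dnmt3a was the second and Uhrf2 the third in young Tregs, while Mbd2 stayed first and Tet2, Dnmt3b and Tet1 last.

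The genes that act after the TET enzymes or read the mark did not pass the test. Tdg (ENSMUSG00000034674, chr10:82629828-82650799, plus strand) had 29.4, 23.3 and 34.3 CPM in aged and 29.5, 33.9, 33.6 and 30.0 CPM in young Tregs. Aged libraries included both the highest and the lowest value, and the log2 fold change was -0.13 (95% interval -0.46 to 0.20, adjusted p = 0.571 by edgeR's quasi-likelihood test), at -0.27 without aged replicate 3 and 0.0032 without aged replicate 2. Its exons overlap Glt8d2 over 6.83% of their bases, and Glt8d2 had 2 to 13 counts per library. Mbd2 (ENSMUSG00000024513, chr18:70568189-70626131, plus strand) had 150, 129 and 151 CPM in aged and 148, 173, 142 and 150 CPM in young Tregs. These ranges overlapped, with a log2 fold change of -0.09 (95% interval -0.34 to 0.15, adjusted p = 0.59 by edgeR's quasi-likelihood test), at -0.02 without aged replicate 2 and -0.03 without young replicate 2.

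**Figure D4:**
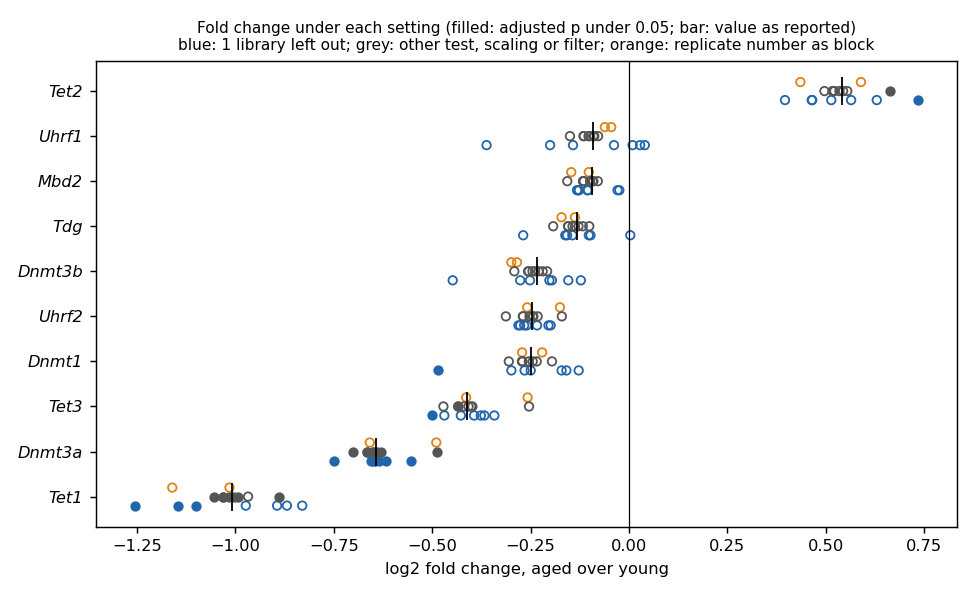
Log2 fold change of the 10 genes under each alternative (blue, 1 library left out; grey, another test, scaling or filter; orange, replicate number as a block), filled where the adjusted p was under 0.05, with a bar at the reported value. Dnmt3a is filled in 15 of 17 alternatives and Tet1 in 10 of 17.

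Aged replicate 1 was the highest of the 3 aged libraries for 8 of the 10 genes and the lowest for 0, against 36.6% and 37.3% of all genes tested. Aged replicate 2 was the lowest for 7, against 33.6% of all genes, and no test of these counts was run. Among young libraries, replicate 1 was the highest for 4 genes, and replicates 2 and 3 for 3 each.

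The partners of these enzymes were described by 8 lists with 90 tested genes, and 3 of these rose and 7 fell with age, that is 3.33% and 7.78%, against 9.8% and 6.94% of all genes. The median log2 fold change of the 90 genes was -0.09. Of 8 tested genes listed with maintenance and de novo methylation (Hells, Cdca7, Usp7, Pcna, Dmap1, Trdmt1, Trim28 and Setdb1), 1 was higher and 0 were lower by edgeR, with a median of -0.08. The higher gene was Trdmt1, which is not a cofactor of DNA methylation, and none of the cofactors passed by edgeR. Trdmt1, a DNMT homologue that methylates transfer RNA, was at 13.8 ± 2.01 CPM against 8.01 ± 1.31 CPM in young Tregs (log2 fold change 0.78, SE 0.180, adjusted p = 0.0222 by edgeR's quasi-likelihood test). This call was lost without aged replicate 3, young replicate 1 or young replicate 4, and with library size as the only scaling, at adjusted p of 0.0565 to 0.0762 by edgeR. Of the 9 other methyl-CpG readers 0 passed by edgeR, DESeq2 or limma voom, and the median was -0.11. An unadjusted p under 0.05 by edgeR was reached by 2 of the 9 (32.7% of all genes).

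In NuRD, the complex that Mbd2 joins, 10 of 11 genes had a negative log2 fold change (median -0.25). By edgeR 1 passed the test, beside 6.94% of all genes that passed lower. By DESeq2 3 passed and by limma voom 2, and every call was lower in aged Tregs. With the replicate number as a block 0 passed (2 at an unadjusted p under 0.05 by edgeR). Chd4, the ATP-driven remodeller of NuRD, had 439, 392 and 372 CPM in aged and 634, 582, 619 and 643 CPM in young Tregs. The groups were far apart, at a log2 fold change of -0.63 (SE 0.110, adjusted p = 0.00802 by edgeR's quasi-likelihood test), and the call held whichever library was left out. The aged and young libraries did not overlap for 6 of the 11 genes (29.9% of all genes).

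Base excision repair, which completes demethylation after Tdg, had 2 of 13 genes that passed higher and 2 that passed lower in aged Tregs (median -0.07), beside 9.8% and 6.94% of all genes, and 0 with the replicate number as a block (4 at an unadjusted p under 0.05 by edgeR). Neil2, a glycosylase for oxidised bases, was at 4.54, 7.25 and 6.46 CPM in aged and at 2.01, 2.38, 1.74 and 1.08 CPM in young Tregs. It was low in every library and higher in every aged one (log2 fold change 1.75, SE 0.299, adjusted p = 0.00714 by edgeR's quasi-likelihood test). Neil1, a glycosylase of the same family, rose less, from 25.8 ± 1.71 CPM in young to 35.6 ± 3.39 CPM in aged Tregs (0.46, SE 0.110, adjusted p = 0.025 by edgeR's quasi-likelihood test). Parp1, which senses strand breaks, fell from 191 ± 11.2 CPM in young to 126 ± 11.8 CPM in aged Tregs (-0.60, SE 0.102, adjusted p = 0.00708 by edgeR's quasi-likelihood test). Lig3, the ligase of this pathway, fell from 35.9 ± 2.57 to 23.4 ± 3.67 CPM (-0.62, SE 0.130, adjusted p = 0.0162 by edgeR's quasi-likelihood test). Neil2 and Parp1 passed whichever library was left out. Neil1 was lost without aged replicate 2 or 3 or young replicate 3 or 4 (adjusted p up to 0.0901 by edgeR), and Lig3 without aged replicate 3 or young replicate 3 (up to 0.06).

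Of 11 TET partners and enzymes of 2-oxoglutarate metabolism, 0 were higher and 2 lower (median -0.16), beside 9.8% and 6.94% of all genes. With the replicate number as a block 0 of the 11 passed (2 at an unadjusted p under 0.05 by edgeR). Cxxc5, a CXXC protein that binds unmethylated CpG, fell from 23.3 ± 3.13 CPM in young to 13.7 ± 3.59 CPM in aged Tregs (-0.77, SE 0.20, adjusted p = 0.0341 by edgeR's quasi-likelihood test). Idh2, which makes 2-oxoglutarate in mitochondria, fell from 36.8 ± 2.48 to 28.3 ± 2.33 CPM (-0.38, SE 0.106, adjusted p = 0.0432 by edgeR's quasi-likelihood test). The call of Cxxc5 was lost without aged replicate 2 or young replicate 1, 3 or 4 (adjusted p up to 0.0886 by edgeR), and that of Idh2 was lost whichever of the 7 libraries was left out (0.0528 to 0.118). Of 10 genes of S-adenosylmethionine and one-carbon metabolism, which supply the methyl group, 0 were higher and 2 lower (median -0.21). The shares of all genes were 9.8% and 6.94%. With the replicate number as a block 0 of the 10 passed (4 at an unadjusted p under 0.05 by edgeR). The 2 lower genes were Mtr, methionine synthase (log2 fold change -0.48, SE 0.128, adjusted p = 0.037 by edgeR's quasi-likelihood test), and Mtrr, its reductase (-0.43, SE 0.119, adjusted p = 0.0434). Mtr held without aged replicate 1 or young replicate 2 only, and Mtrr without aged replicate 1 only, at adjusted p of up to 0.119 and 0.13 by edgeR.

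**Figure D5:**
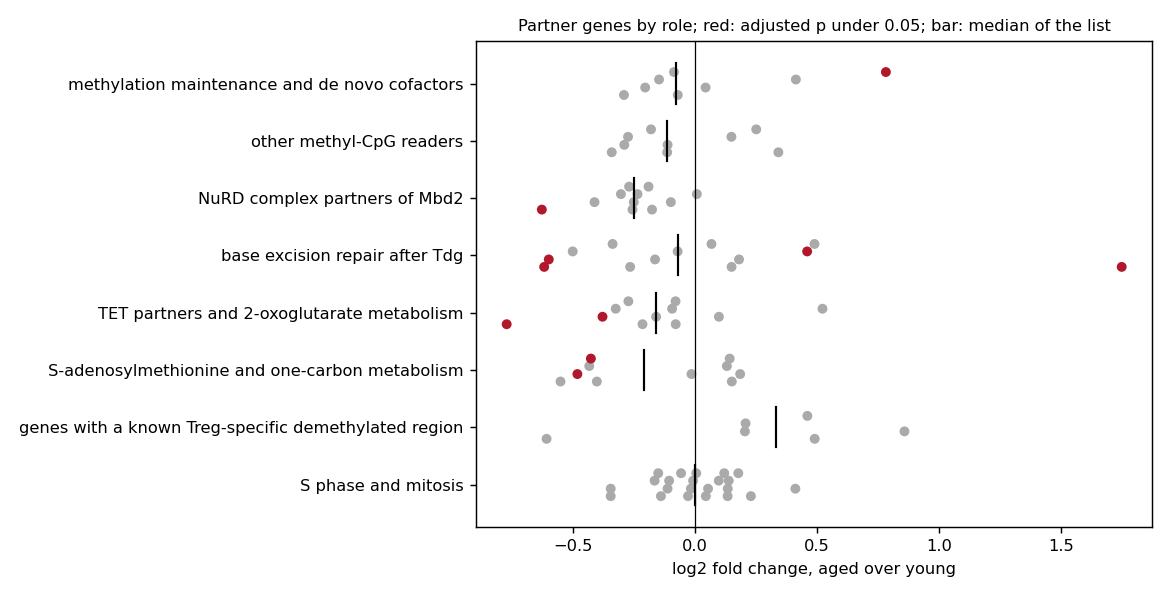
Log2 fold change of aged over young Tregs for the tested genes of each partner list, red where the adjusted p was under 0.05, with a bar at the median of the list. Red points are 3 to the right of 0 and 7 to the left, and the list of S phase and mitosis has none.

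Because Dnmt1 and Uhrf1 act when DNA is replicated, 22 genes of S phase and mitosis were set beside them. By edgeR, DESeq2 and limma voom alike 0 of these passed in either direction (16.7% of all genes by edgeR). An unadjusted p under 0.05 by edgeR was reached by 0 (32.7% of all genes). For 0 of the 22 were the ages without overlap (29.9% of all genes), and 11 of 22 had a negative log2 fold change. Their summed level was 2556, 2707 and 2019 CPM in aged and 2705, 1695, 2976 and 2998 CPM in young Tregs. Young replicate 2 had the lowest sum and the lowest young value of both Dnmt1 (173 CPM) and Uhrf1 (69.2 CPM). The highest aged sum, that of aged replicate 2, was carried by Mki67 (506, 737 and 439 CPM in the aged libraries) and E2f2 (119, 452 and 242 CPM), whereas 17 of the 22 genes were higher in aged replicate 1 than in aged replicate 2. Over all libraries E2f2 was highest in aged replicate 2 and lowest in young replicate 2 (93.3 CPM). These also had the highest and the lowest haemoglobin share (13.1% and 1.24%). Mki67 was lowest in young replicate 2 (259 CPM) but highest in young replicate 4 (939 CPM). The part of erythroid RNA in these values was not tested. Without these 2 genes, left out after their values were seen, the sum was 1931, 1518 and 1339 CPM in aged and 1476, 1342, 1924 and 1734 CPM in young Tregs. Within each age the libraries then stood in the same order as for Dnmt1 and Uhrf1, whereas with all 22 genes they did not. Since the 2 genes were chosen by their values, this order decides nothing, and no test was run. Mki67, a marker of cycling cells, had a log2 fold change of -0.34 (SE 0.398) and Top2a, the topoisomerase of mitosis, one of -0.34 (SE 0.20), with adjusted p of 0.594 and 0.27 by edgeR's quasi-likelihood test. With 1 library left out, Mki67 ran from -0.62 (without young replicate 2, adjusted p = 0.0749 by edgeR) to -0.18 (without young replicate 4) and Top2a from -0.56 (without aged replicate 1, adjusted p = 0.0663) to -0.19 (without aged replicate 3).

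Foxp3 and 5 other Treg genes known to lose methylation in a region of their own were also followed. By edgeR 0 of the 6 passed in either direction (median 0.33), beside 16.7% of all genes. At an unadjusted p under 0.05 by edgeR stood 4 (32.7% of all genes), and 1 passed lower by DESeq2 and by limma voom. Foxp3, the lineage factor of Tregs, had a log2 fold change of 0.21 (SE 0.160, adjusted p = 0.409 by edgeR's quasi-likelihood test), which was 0.048 without aged replicate 1. Ikzf2 (Helios) was at 561, 403 and 498 CPM in aged and 386, 400.0, 357 and 273 CPM in young Tregs. Its groups did not overlap (0.46, SE 0.167, adjusted p = 0.0942 by edgeR's quasi-likelihood test), and it passed with GC and length trends removed (0.53, adjusted p = 0.0275 by edgeR). Ctla4, an inhibitory receptor, was at 829, 640 and 835 CPM in aged and 390, 721, 325 and 257 CPM in young Tregs. Young replicate 2 lay among the aged libraries (0.86, SE 0.321, adjusted p = 0.103 by edgeR's quasi-likelihood test), and without it the log2 fold change was 1.24 with an adjusted p of 0.00593. Il2ra had a log2 fold change of -0.61 (SE 0.188, adjusted p = 0.0588), Tnfrsf18 (GITR) of 0.49 (SE 0.210, adjusted p = 0.144) and Ikzf4 (Eos) of 0.21 (SE 0.107, adjusted p = 0.223), all by edgeR's quasi-likelihood test. Il2ra passed without aged replicate 1 (-0.81, adjusted p = 0.0158 by edgeR) and Tnfrsf18 without young replicate 2 (0.71, adjusted p = 0.0168 by edgeR), and Ikzf4 was 0.13 without young replicate 4.

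Markers of T cell states and of other blood cells also differed between ages in these libraries. All 6 markers of naive T cells fell, with a summed level of 1023 to 1290 CPM in aged and 2081 to 2290 CPM in young Tregs and none at 0 in any library. S1pr1, a receptor for exit from lymphoid organs, had a log2 fold change of -0.81 and Tcf7, a transcription factor of naive T cells, one of -0.43, and this drop stands beside that of Dnmt3a and Tet1. Of 8 markers of effector memory T cells, 4 rose (649 to 730 CPM against 463 to 605 CPM summed). Of all genes, 9.8% passed higher and 6.94% lower. Of 9 neutrophil markers, 4 rose, at a summed level of 632 to 4526 CPM in aged and 279 to 879 CPM in young Tregs, with the highest S100a8 and S100a9 in aged replicate 1. The neutrophil count was 5 by DESeq2 and 3 by limma voom. With the replicate number as a block, 3 naive, 2 effector memory and 1 neutrophil marker passed by edgeR, and 0 neutrophil markers with GC and length trends also removed (2 at an unadjusted p under 0.05). B cell markers summed to 890 to 1671 CPM in aged and 1359 to 2119 CPM in young Tregs and 0 of 8 passed by edgeR (4 at an unadjusted p under 0.05; 3 passed by DESeq2 and 1 by limma voom). Of the other lists, monocyte or macrophage markers were lower for 3 of 9, dendritic cell markers higher for 1 and lower for 3 of 7, natural killer cell markers lower for 1 of 6, plasma cell markers higher for 1 of 7 and platelet markers higher for 1 of 4. The list of Treg markers also holds Cd4 and Cd3e, which are not particular to Tregs. Of its 9 genes, 1 was higher, Cd3e (log2 fold change 0.46, adjusted p = 0.0301), and 1 lower, Gpr83 (-1.71, adjusted p = 0.00274), by edgeR's quasi-likelihood test. Both were named after their values were seen. Erythroid (7 tested) and CD8 T cell (2 tested) markers had 0 calls by edgeR, DESeq2 and limma voom and 0 at an unadjusted p under 0.05. The part of these cell types in the levels of Dnmt3a, Tet1 and the other genes was not tested.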

How the data were processed

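RNA of CD4+CD25+ splenocytes was sequenced, in 3 replicates of aged and 4 of young mice, from SMART-Seq cDNA. The authors deposited raw read counts per Ensembl gene, from which 5 lines of reads on no single gene (13.1% to 20.9% of reads) were left out. The authors also deposited signal values, which equal the counts divided by 1 size factor per library and served only for gene symbols and as a check, beside their own mean, fold change, SE, statistic and p-values, which were not used. The build named in the submitters' processing notes is mm10. The aligner and its version are not given in the sources used here. The naming of the tables points to counting without strand, in which overlapping genes cannot be told apart. Coordinates and lengths are from GENCODE on GRCm38.

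Aged and young libraries were tested against each other by edgeR 4.0.16 under R 4.3.3 (TMM, filterByExpr by group, quasi-likelihood test, Benjamini-Hochberg over all genes tested, adjusted p under 0.05 called, or a gene that "passed"), tested on simulated data. The standard error is the log2 fold change divided by the square root of F. The alternatives were DESeq2 1.42.0, limma 3.58.1 voom, RLE or library size scaling, no filter, a minimum of 10 counts in every library, removal of mitochondrial, haemoglobin and immunoglobulin genes, GC and length trends removed, the replicate number as a block, and each library left out. The study's methods name limma for its comparison, whereas the deposited comparison columns carry the column names of DESeq2's output. Named were the 10 genes, all called genes of each partner list, Mki67, Top2a, the genes with a Treg-specific demethylated region, Cd4, and the 3 most abundant markers of a list set beside a result. Values of 1 gene that this rule names are not reported here. The choice of the 10 genes used symbols and no measured value as a criterion, but it and the lists were made with earlier results of these data known.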

Additional observations from a re-analysis of the deposited data

How the results depend on the processing

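Of the 2 calls among the 10 genes, Dnmt3a held in 15 and Tet1 in 10 of 17 alternatives. The count of genes that passed (2327) was 2910 with DESeq2, 2283 with limma voom, 1016 where a log2 fold change of 1 or more in size was also required, and 1237 to 3058 with each library left out. The count among the 10 genes (2) was 3 with DESeq2 (Tet3 added, lower), 3 with GC and length trends removed (Tet2 added, higher), 1 with limma voom, 1 with that fold, and 1 to 3 with each library left out. Partner genes that passed higher (3) were 1 with library size only and 1 to 5 with each library left out, and those lower (7) were 11 with DESeq2, 4 with library size only and 2 to 12 with each library left out. The cause was not tested. With each library left out, the log2 fold change of Uhrf1 ran from -0.36 to 0.04 (0.0090 without aged replicate 2, 0.040 without aged replicate 3 and 0.028 without young replicate 3), and that of Tdg from -0.27 to 0.0032 (without aged replicate 2). The ages share replicate numbers 1 to 3, but same-numbered libraries did not deviate together (correlations of -0.09, -0.29 and -0.14, and 0 libraries correlated best with their own number). These correlations gave no sign that the numbers pair the samples. They cannot exclude it, since other differences between libraries can hide a shared deviation. With the replicate number as a block, which takes young replicate 4 out of the contrast, 292 genes passed, and 266 with GC and length trends also removed. Under the block, with and without that removal, 0 of the 10 genes (3 at an unadjusted p under 0.05 by edgeR) and 0 higher and 0 lower partner genes passed (16 at an unadjusted p under 0.05, and 18 with the removal), while the log2 fold changes under the block were -0.66 for Dnmt3a (adjusted p = 0.064 by edgeR; -0.49 and 0.0994 with the removal) and -1.16 for Tet1 (adjusted p = 0.0553; -1.01 and 0.0625 with the removal), beside -0.64 and -1.01 without the block. Mki67 turned to 0.013 in the block with GC and length trends removed. Per kilobase of coding sequence, the ranks in young Tregs were 4 for Dnmt1, 2 for Dnmt3a, 5 for Uhrf1, 3 for Uhrf2 and 6 for Tet3, and by longest transcript 4 for Uhrf1 and 3 for Uhrf2. No scaling moved the median of all genes by over 0.1. Depth limits Tet1 and Dnmt3b most.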

Other observations

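Ratios of counts within a library do not depend on scaling between libraries. For 8 pairs of the 10 genes, chosen after their values were seen and therefore given with no test, 4 did not overlap between ages. The share over gene pairs in general was not computed. The ratios with Tet2 set the only gene with a positive log2 fold change over genes with negative ones. They are made from the same counts as the fold changes above. Tet2 had 0.626, 0.424 and 0.641 counts per count of Tet3 in the 3 aged libraries and 0.303, 0.380, 0.254 and 0.254 in the 4 young ones, in the order of their replicate numbers. The aged libraries lay above all young ones, although aged replicate 2 came near young replicate 2. Per count of Tet1, Tet2 had 8.60, 9.19 and 10.96 counts in aged and 3.10, 4.22, 2.39 and 3.87 in young Tregs. Per count of Dnmt3a, an eraser against a writer, Tet2 had 0.917, 0.716 and 0.980 counts in aged and 0.434, 0.407, 0.376 and 0.330 in young Tregs. Aged replicate 2, which had the lowest Tet2 level of the aged libraries, was also above every young library in the ratios to Tet1 and Dnmt3a. Dnmt3a had 6.92, 8.05 and 8.59 counts per count of Dnmt3b in aged and 11.3, 9.52, 9.38 and 11.1 in young Tregs. The ratios of Uhrf1 to Dnmt1, Uhrf2 to Uhrf1, Tet3 to Tet1 and Dnmt3a to Dnmt1 overlapped between ages. Uhrf1 stood at 0.508 to 0.535 counts per count of Dnmt1 in aged and 0.400 to 0.519 in young Tregs.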
